A study of Mus musculus with 2 samples.

Results

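Cre, ERT2, FlpE, Bgh-pA and Sv40-pA are 5 of the 21951 features of the gene matrix. Each is a transgene sequence that was added to the mouse reference and counted like a gene. They were chosen by name, as the recombinases, the receptor domain and the polyadenylation signals among the added sequences. The other 62 added sequences are the reporter Tomato, the posttranscriptional element WPRE and 60 sequences named as barcodes, and they serve here only as references.

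Cre is a recombinase that cuts and joins DNA at loxP sites. ERT2 is a mutated ligand-binding domain of the estrogen receptor, and a CreERT2 fusion stays outside the nucleus, held by the chaperone Hsp90, until 4-hydroxytamoxifen (4-OHT) binds it. FlpE and FlpO are forms of the yeast recombinase Flp, which acts on FRT sites. Bgh-pA and Sv40-pA are polyadenylation signals of bovine growth hormone and of simian virus 40, which end transcripts of transgenes and of stop cassettes, so that 1 signal can be shared by several alleles of a mouse. According to the study's methods, Cdh5-CreERT2 places the CreERT2 fusion under an endothelial promoter, and the iSuRe-Cre allele makes MbTomato and Cre from a single transcript after recombination. In the iSuRe-HadCre allele a cassette with Cre, a removable ERT2 and FlpO is deleted by FlpO itself, after which MbTomato followed by WPRE is expressed. The feature table names FlpE and not FlpO, and it does not say which allele a polyadenylation signal was taken from.

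Endothelial cells (ECs) from heart and liver were profiled in 1 10x Genomics library, in which 6 antibody hashtags marked the groups. C57BL/6 pups received 40 mg/kg 4-OHT at postnatal day 3 and tissues were collected 3 days later, at P6 to P7. The groups were control, iSuRe-Cre and iSuRe-HadCre, in heart and in liver, and both kinds of iSuRe mice also carried Cdh5-CreERT2. The study also describes the iSuRe cells as deleted for Notch1, an allele that the labels do not list. The control genotype is not given in the sources used here, and the labels list only Cdh5-CreERT2 with iSuRe-HadCre as genotype. ECs were sorted as CD31+ MbTomato+ cells, while the series description speaks of presence or absence of Tomato signal. How many pups stood behind a hashtag is likewise not given, so that each group is 1 sample and no difference between groups could be tested against a spread between animals.

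Of 2755147 barcodes, 14348 passed the filters on depth, genes, mitochondrial and haemoglobin transcripts, and 7704 of those were Cdh5-positive. A single hashtag was held by 1988 Cdh5-positive cells, 5585 had none and the remaining ones had several. From heart there were 435 iSuRe-Cre, 311 iSuRe-HadCre and 254 control cells, and from liver 858, 76 and 54 in the same order. Median depth was 16379 UMIs (unique molecular identifiers) per cell in iSuRe-Cre heart and 7322 to 9100 in the other 5 groups. Background of the iSuRe-Cre liver hashtag was high, with 28 UMIs at the median barcode that passed against 1 to 3 for the others, and its minimum was 140 UMIs instead of 25. Levels are given in CPM, the UMIs of a sequence in 1000000 gene UMIs of the same cells. Endothelial markers summed to 4521 to 5737 CPM in the 6 groups, against 288 in cells with neither a hashtag nor a Cdh5 UMI, but Cdh5 is on that list and both sets were chosen by it. By the whole list, 88.2% to 94.5% of the cells of a heart group and 76.0% to 81.5% of those of a liver group were classed as endothelial, and 0% to 1.61% and 7.11% to 9.26% as erythroid. Markers of liver sinusoidal ECs were at 3619 CPM in iSuRe-Cre liver, 911 in iSuRe-HadCre liver and 338 in control liver, so the liver groups differed in these markers as well as in genotype, and the 2 cannot be told apart. Heart EC markers summed to 12343 to 21254 CPM in heart and 4455 to 5965 in liver. Markers of other cells were at 76.1 to 697 CPM for hepatocytes, 1175 to 3983 for erythroid cells, 20.8 to 342 for macrophages, 405 to 760 for fibroblasts, 28.8 to 100.3 for cardiomyocytes, 35.1 to 133 for mural cells and 26.4 to 96.4 for keratinocytes. Neutrophil markers were at 37.1 to 593 in 5 groups and at 3518 in iSuRe-Cre liver. Their part in the levels below was not tested, beyond ratios recomputed in cells with endothelial markers alone and in cells without a UMI of a neutrophil marker.

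Cre levels were close to each other in 5 of the 6 groups and lower in control liver. In the iSuRe groups Cre UMIs can come from Cdh5-CreERT2 as well as from the iSuRe allele, and these sources cannot be told apart. The levels therefore do not show how much Cre an iSuRe allele made. All levels are CPM, with exact Poisson 95% intervals that, like the intervals of shares and ratios, cover counting error only. In heart, Cre was at 29.0 (23.3 to 35.8) in control cells, 30.7 (27.1 to 34.7) in those of iSuRe-Cre and 36.7 (30.3 to 44.1) in those of iSuRe-HadCre mice. Control liver had 9.61 (3.53 to 20.9), from 6 UMIs, whereas iSuRe-Cre liver had 26.7 (23.4 to 30.2) and iSuRe-HadCre liver 26.4 (15.6 to 41.7). The 3 heart intervals overlapped, as did those of both iSuRe liver groups. The ratio of iSuRe-HadCre to iSuRe-Cre was 1.20 (0.951 to 1.50) in heart and 0.989 (0.576 to 1.60) in liver, so the counts allow anything from about equal levels to a moderate difference. Against control, iSuRe-Cre stood at 1.06 (0.827 to 1.36) in heart and 2.77 (1.26 to 7.63) in liver. The corresponding ratios of iSuRe-HadCre were 1.26 (0.949 to 1.69) and 2.74 (1.04 to 8.44).

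Free RNA and cells without Cdh5 give a reference for these values. A free RNA level is a share of the UMIs outside cells, not the amount that free RNA adds to a cell. In 24194 barcodes of 10 to 100 UMIs, which hold RNA outside cells, Cre was at 7.59 (3.05 to 15.6), from 7 UMIs. Control liver lay within that interval, whereas the lower bounds of the heart groups and of iSuRe-Cre liver lay above it. Cells with neither a hashtag nor a Cdh5 UMI had a Cre level of 1.12 (0.880 to 1.41).

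**Figure D1:**
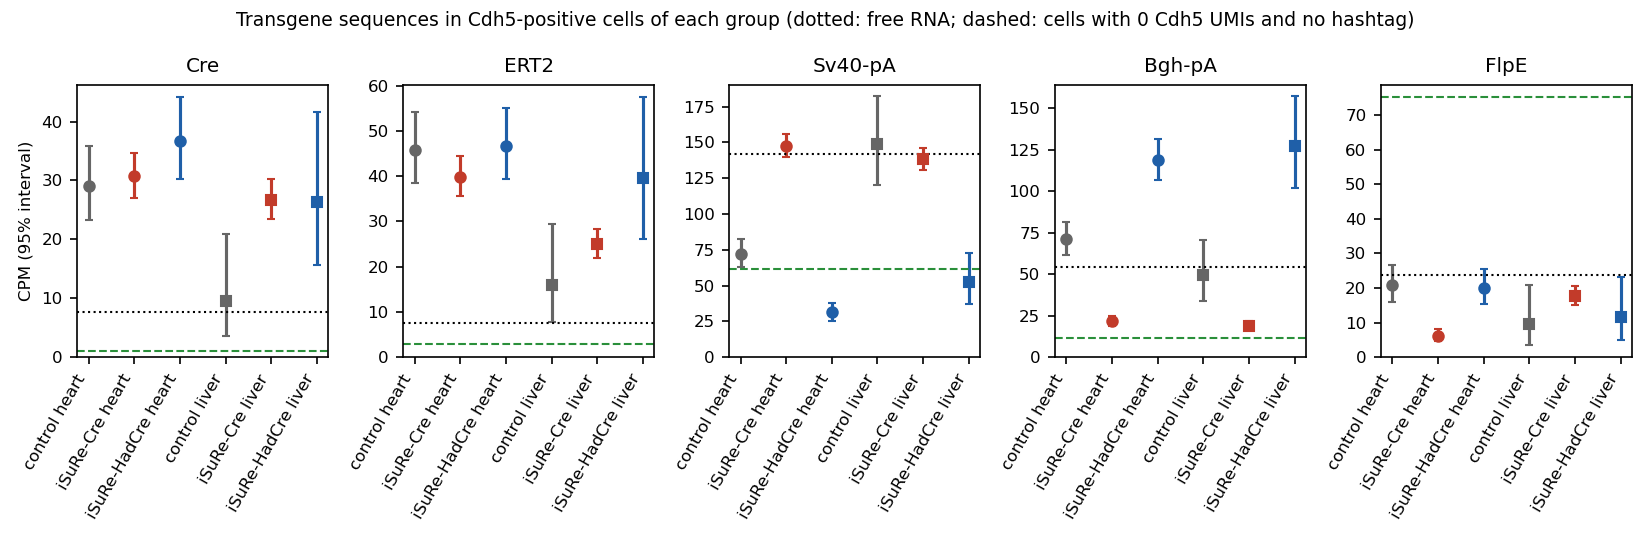
CPM of each transgene sequence (y axis, separate linear scales) in the Cdh5-positive cells of the 6 groups (x axis, circles heart, squares liver), with exact Poisson 95% intervals as bars. The dotted line is free RNA and the dashed line is cells with neither a hashtag nor a Cdh5 UMI: Cre and ERT2 lie above both in heart, while the FlpE values of all 6 groups, 6.14 to 20.8, lie below the dotted line at 23.8.

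ERT2, which CreERT2 carries and the iSuRe-Cre cassette does not, varied little between the heart groups and more between the liver groups. In heart the control cells were at 45.9 (38.6 to 54.2), those of iSuRe-Cre at 39.9 (35.7 to 44.4) and those of iSuRe-HadCre at 46.7 (39.4 to 55.0). In liver the values were 16.0 (7.68 to 29.5), 24.9 (21.8 to 28.4) and 39.5 (26.1 to 57.5). Heart groups thus overlapped, and in liver the order was control, iSuRe-Cre and iSuRe-HadCre, with overlap of each pair of neighbours. The ratio of iSuRe-HadCre to iSuRe-Cre was 1.17 (0.958 to 1.43) in heart and 1.58 (1.02 to 2.37) in liver. Relative to control it was 2.47 (1.16 to 5.71) for iSuRe-HadCre liver and 1.56 (0.831 to 3.29) for iSuRe-Cre liver. Free RNA was at 7.59 for ERT2 too.

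Counting ERT2 UMIs per Cre UMI removes depth and the number of cells from the comparison. Control heart had 1.58 (1.20 to 2.09), iSuRe-Cre heart 1.30 (1.10 to 1.53) and iSuRe-HadCre heart 1.27 (0.988 to 1.64) ERT2 UMIs per Cre UMI. In iSuRe-Cre liver the value was 0.936 (0.779 to 1.12), below the lower bound for control heart and the lowest of the groups, while iSuRe-HadCre liver had 1.50 (0.796 to 2.89) and control liver 1.67 (0.549 to 5.58). Cdh5-positive cells with no hashtag had 1.52 (1.38 to 1.69). Cells without Cdh5 and hashtag, where both sequences were rare, had 2.51 (1.90 to 3.34).

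Endogenous genes of this pathway give a reference for ERT2. Esr1, the gene of estrogen receptor alpha, was at 0.322 to 5.57 CPM over the groups, highest in iSuRe-Cre liver, and Esr2, the gene of estrogen receptor beta, was at 0 to 1.29. Hsp90aa1 and Hsp90ab1, the genes of the cytosolic Hsp90 forms, were at 299 to 535 and 2314 to 2838. Cdh5 itself, whose promoter drives CreERT2, was at 738 to 1310, with control heart highest and iSuRe-Cre liver lowest. Cdh5 was part of the selection, so its level is a description only.

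By CPM, the Sv40-pA level differed between all 3 heart groups beyond Poisson counting error, which treats UMIs as independent. Its heart level was 148 (139.5 to 156) in iSuRe-Cre, 72.3 (63.0 to 82.5) in control and 31.3 (25.4 to 38.1) in iSuRe-HadCre cells, and no pair of these intervals overlapped. By share of cells with a UMI, control (17.3%, 12.9 to 22.5) and iSuRe-HadCre heart (16.1%, 12.2 to 20.6) did not separate. In control heart 16 cells held 81.3% of the Sv40-pA UMIs. In liver the level was 149 (120.3 to 183) in control cells, 138 (131 to 146) with iSuRe-Cre and 52.7 (36.9 to 73.0) with iSuRe-HadCre, so that iSuRe-HadCre was lower than both others and those did not separate. iSuRe-HadCre had 0.212 (0.170 to 0.261) times the iSuRe-Cre level in heart and 0.381 (0.266 to 0.531) times in liver. Against control the ratios of iSuRe-HadCre were 0.433 (0.337 to 0.552) and 0.354 (0.234 to 0.525). iSuRe-Cre had 2.04 (1.77 to 2.37) times the control level in heart and 0.927 (0.751 to 1.16) times in liver.

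Free RNA held Sv40-pA at 142 (119 to 168), inside the intervals of the iSuRe-Cre groups and control liver. Those 3 levels were thus of the size seen in free RNA, while both iSuRe-HadCre groups lay well below it. What part of the Sv40-pA UMIs of the cells came from free RNA was not tested. Neutrophil genes also differed between the liver groups: Ngp, Camp, S100a8, S100a9, Ltf and Lcn2 summed to 3518 CPM in iSuRe-Cre liver, 593 in control liver, where Lcn2 was at 0, and 42.5 in iSuRe-HadCre liver, where Ltf was at 0. The heart sums were 174 for control, 37.1 for iSuRe-Cre and 60.9 for iSuRe-HadCre. That list was made after values had been seen. Without cells that had a UMI of these genes, iSuRe-Cre stood at 1.32 (0.916 to 1.97) times control in liver. The part of neutrophil RNA in the liver values was not tested beyond that.

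Bgh-pA had the opposite order in heart, but not in liver, where Sv40-pA of control and iSuRe-Cre did not separate. Its heart level was 119 (107 to 131) in iSuRe-HadCre, 71.0 (61.8 to 81.1) in control and 21.7 (18.6 to 25.1) in iSuRe-Cre cells. The liver values in that order were 127 (102 to 157), 49.7 (33.8 to 70.5) and 18.9 (16.3 to 22.0). In both tissues the 3 intervals were separate, iSuRe-Cre being the lowest and iSuRe-HadCre the highest. The ratio of iSuRe-HadCre to iSuRe-Cre was 5.47 (4.57 to 6.58) in heart and 6.72 (5.14 to 8.74) in liver. iSuRe-Cre was at 0.305 (0.249 to 0.374) and 0.381 (0.259 to 0.578) times control, and iSuRe-HadCre at 1.67 (1.41 to 1.99) and 2.56 (1.68 to 4.00) times control. Free RNA held 54.2 (40.2 to 71.4), which control liver did not exceed and which both iSuRe-Cre groups fell short of.

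Bgh-pA and WPRE had the same order of groups within each tissue. WPRE was at 1055 CPM in iSuRe-HadCre, 562 in control and 63.5 in iSuRe-Cre heart, and at 1070.3, 396 and 105 in liver. Bgh-pA UMIs per WPRE UMI were 0.126 (0.109 to 0.145) in control heart, 0.112 (0.101 to 0.125) in iSuRe-HadCre heart, 0.126 (0.0835 to 0.183) in control liver and 0.119 (0.0942 to 0.149) in iSuRe-HadCre liver. These 4 values lay within counting error of each other although the Bgh-pA levels behind them ran from 49.7 to 127. iSuRe-Cre departed from them, with 0.342 (0.287 to 0.405) in heart and 0.181 (0.153 to 0.213) in liver. Free RNA had 0.338 (0.240 to 0.468).

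Both polyadenylation signals together divided the groups further than either alone. Sv40-pA UMIs per Bgh-pA UMI numbered 6.81 (5.82 to 8.01) in iSuRe-Cre, 1.02 (0.840 to 1.24) in control and 0.264 (0.209 to 0.331) in iSuRe-HadCre hearts. In liver the corresponding values were 7.29 (6.23 to 8.58), 3.00 (1.98 to 4.66) and 0.414 (0.272 to 0.617). The order was the same in both tissues, with no overlap between groups of a tissue. Free RNA lay at 2.62 (1.88 to 3.71), between the groups.

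**Figure D2:**
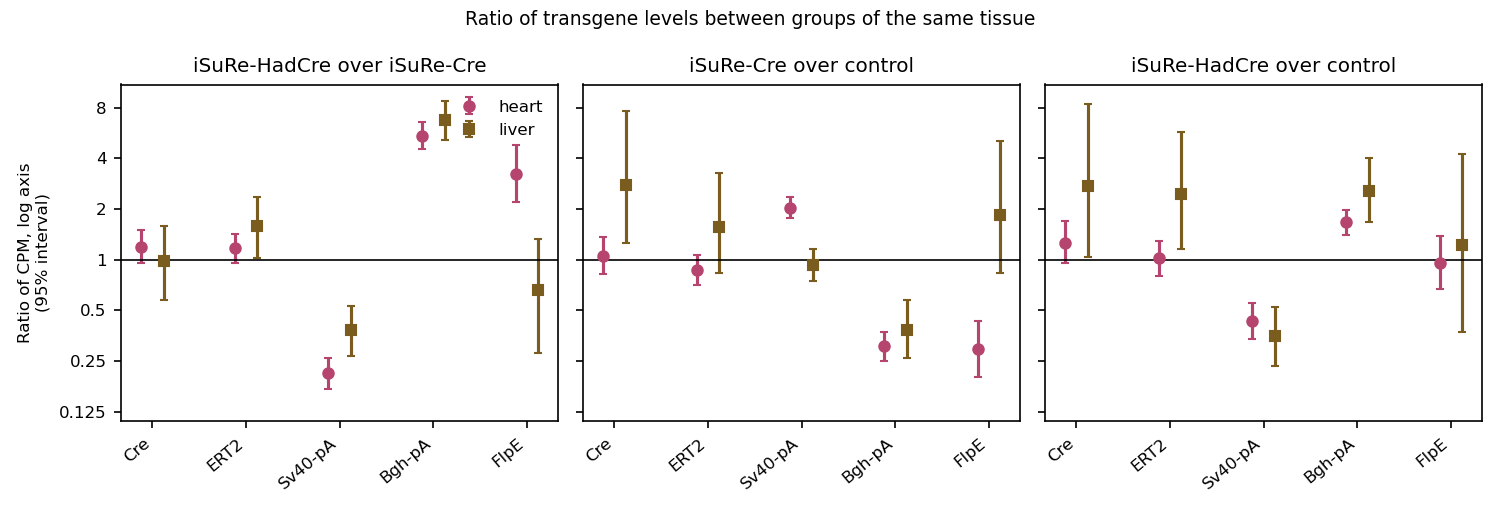
Ratio of CPM between 2 groups of the same tissue (y axis, log scale) for each transgene sequence (x axis), circles heart and squares liver, with exact conditional 95% intervals. In the left panel Bgh-pA lies above 1 (5.47 in heart, 6.72 in liver), Sv40-pA below 1 (0.212 and 0.381), Cre has intervals that include 1, and FlpE lies above 1 in heart (3.25) with an interval that includes 1 in liver (0.659).

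By CPM, FlpE was lower in iSuRe-Cre than in the other heart groups, while the shares of cells with a FlpE UMI overlapped. In heart, control cells were at 20.8 (16.0 to 26.6), iSuRe-HadCre cells at 20.0 (15.3 to 25.6) and iSuRe-Cre cells at 6.14 (4.57 to 8.08). The liver values in the same order were 9.61 (3.53 to 20.9), 11.7 (5.06 to 23.1) and 17.8 (15.2 to 20.7), from 6, 8 and 166 UMIs. Only iSuRe-Cre heart stood apart from its neighbours in heart, and the liver intervals overlapped. The iSuRe-HadCre to iSuRe-Cre ratio was 3.25 (2.21 to 4.81) in heart and 0.659 (0.280 to 1.33) in liver. iSuRe-Cre was at 0.295 (0.200 to 0.434) times control in heart and at 1.85 (0.831 to 5.11) times in liver. No group exceeded free RNA, at 23.8 (14.9 to 36.1), and Cdh5-positive cells with no hashtag had 29.5 (27.7 to 31.4). Levels of FlpE by hashtag count had been seen before the hashtag minimum was set, so its group values are less independent of the selection than those of the other sequences.

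Few cells carried the FlpE counts. Over the 6 groups 134 cells held 356 FlpE UMIs, and 20 of them, with at least 5 UMIs each, held 47.2%. The highest cell had 24 of the 166 UMIs of iSuRe-Cre liver. FlpE-positive cells had a median depth of 17080 UMIs, against 9348 for the others. Restricted to cells under 20000 UMIs, FlpE in heart fell to 14 UMIs in iSuRe-HadCre and 1 in iSuRe-Cre, a ratio of 20.6 (3.14 to 871), and in liver to 1 and 106 UMIs, a ratio of 0.118 (0.00295 to 0.669).

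FlpE UMIs also occurred in cells with UMIs of the 60 barcode sequences. Over the 6 groups, FlpE was at 57.5 in the 260 cells with a barcode-sequence UMI and at 6.19 in the 1728 without, a ratio of 9.30 (7.46 to 11.6). Control heart had 91.2 with and 9.57 without, iSuRe-HadCre heart 67.9 and 8.40, iSuRe-Cre heart 22.5 and 3.96, and iSuRe-Cre liver 72.0 and 5.75. Control liver went the other way, with 6.42 and 10.7, and iSuRe-HadCre liver had 15.7 and 11.3. In both, the value with a barcode-sequence UMI came from 1 FlpE UMI in 9 cells. Cre went the other way, with 11.8 against 32.3 and a ratio of 0.364 (0.264 to 0.491), and ERT2 had a ratio of 0.636 (0.507 to 0.789). Bgh-pA was at 0.528 (0.423 to 0.653) times its level in the other cells and Sv40-pA at 1.16 (1.05 to 1.27) times. Median depth was 9404 UMIs with and 9477 without a barcode-sequence UMI, close to each other over all groups together. Within groups they were further apart, in control heart 20304 and 8465. In iSuRe-HadCre heart the medians were 13148 and 7075.

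**Figure D3:**
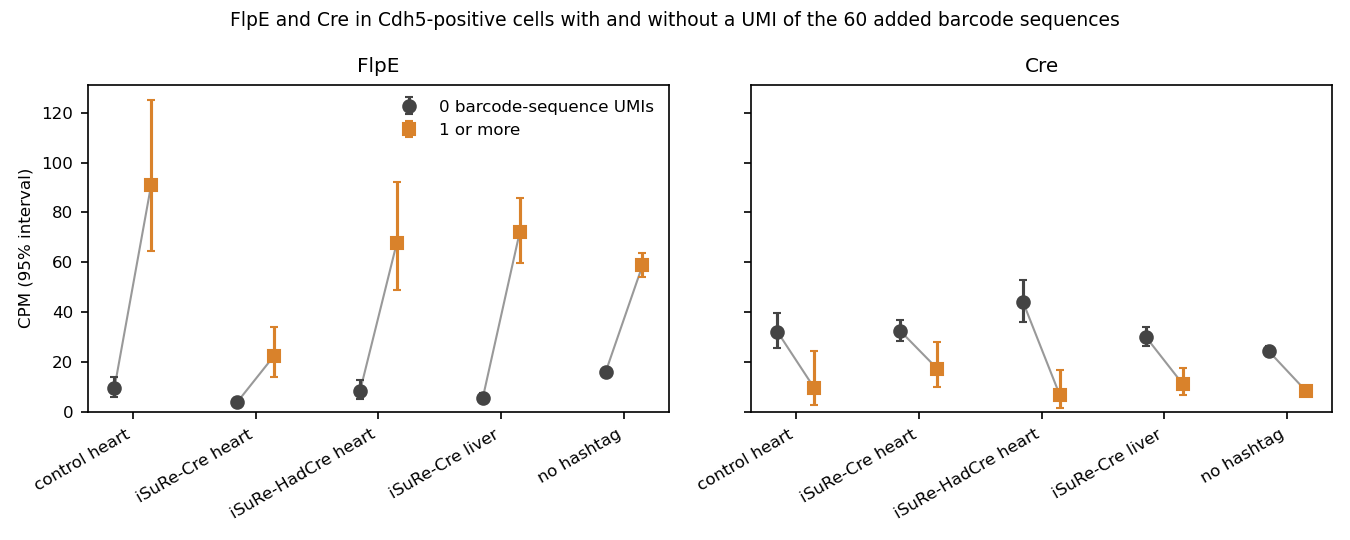
CPM of FlpE (left) and Cre (right) in Cdh5-positive cells without (circles) and with (squares) a UMI of the 60 barcode sequences, by group, with exact Poisson 95% intervals. Control liver and iSuRe-HadCre liver are not drawn, having 9 cells with such a UMI each. FlpE was higher and Cre lower with a barcode-sequence UMI in each of the 5 sets drawn.

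The sequences that differed at least 2-fold between groups were counted beside all features that did. In iSuRe-HadCre over iSuRe-Cre heart, 2 of the 5 (Bgh-pA and FlpE) were at least 2-fold higher and 1 (Sv40-pA) at least 2-fold lower. Of 12367 features with at least 20 UMIs, 7.82% and 3.45% were. In iSuRe-HadCre over iSuRe-Cre liver, 1 (Bgh-pA) was higher and 1 (Sv40-pA) lower, against 7.15% and 10.1% of 12510 features. In iSuRe-Cre over control heart 1 was higher (Sv40-pA) and 2 lower (Bgh-pA and FlpE), with a background of 6.1% and 3.76%. In liver that comparison had 1 higher (Cre) and 1 lower (Bgh-pA), with 10.4% and 9.43%. In iSuRe-HadCre over control heart none was higher and 1 (Sv40-pA) was lower, with 6.2% and 1.33%. In liver, where FlpE had too few UMIs to be counted, 3 of 4 were higher (Cre, ERT2 and Bgh-pA) and 1 lower (Sv40-pA), with 3.65% and 4.54%. With 5 sequences, several of which can lie on 1 transcript, these shares describe the list and support no statement beyond it. Without cells that held a UMI of a neutrophil marker, FlpE in iSuRe-HadCre over iSuRe-Cre heart was no longer past 2-fold, at 1.71 (0.856 to 3.34). With a hashtag minimum of 10 UMIs, Sv40-pA in iSuRe-HadCre was no longer past it against control, at 0.701 in heart and 0.611 in liver, or against iSuRe-Cre liver, at 0.564. Other calls against control fell just short of 2-fold under some settings: in iSuRe-HadCre liver ERT2 at 1.73 to 1.94 in 5 alternatives and Bgh-pA at 1.79 and 1.96 with hashtag minimums of 10 and 50, and in iSuRe-Cre heart Sv40-pA at 1.91 with a minimum of 50. The median feature was higher by 0.21 on the log2 scale in iSuRe-HadCre than in iSuRe-Cre heart and by 0.13 than in control heart, and by less than 0.1 either way in the other comparisons within a tissue.

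Liver and heart of 1 genotype were compared next. In control, where liver had 6 UMIs of Cre, 10 of ERT2 and 6 of FlpE, liver over heart was 0.331 (0.118 to 0.750) for Cre and 0.349 (0.164 to 0.662) for ERT2, and 2.06 (1.60 to 2.64) for Sv40-pA, or 1.34 (0.868 to 2.01) without cells that held a UMI of a neutrophil marker. FlpE was at 0.462 (0.164 to 1.06) and Bgh-pA at 0.700 (0.464 to 1.02). Thus 1 sequence was at least 2-fold higher in liver and 3 at least 2-fold lower, where 9.6% and 5.15% of all features were. In iSuRe-Cre mice only FlpE passed that fold, at 2.89 (2.10 to 4.04), against 12% of features higher and 5.01% lower. Their ERT2 was lower in liver, at 0.626 (0.527 to 0.742), while Cre was at 0.868 (0.726 to 1.04) and Sv40-pA at 0.936 (0.865 to 1.01). In iSuRe-HadCre mice 0 of 5 passed it, with a background of 5.2% and 7%, and Sv40-pA had the highest ratio, 1.69 (1.12 to 2.50). In control, 5 alternatives each put FlpE (up to 0.765) and Sv40-pA (1.34 to 1.99) short of 2-fold, and FlpE in iSuRe-Cre was at 1.86 in cells with endothelial markers alone. The median feature was higher in liver by 0.11 in control and by 0.14 in iSuRe-Cre on the log2 scale.

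Cre and ERT2 rose with the Cdh5 UMIs of a cell, and FlpE fell. Across all barcodes that passed, Cre was at 1.13 in cells with 0 Cdh5 UMIs, 3.64 with 1, 10.2 with 2 to 4, 22.7 with 5 to 9 and 32.0 with 10 or more. ERT2 went from 2.86 through 9.02, 17.0 and 28.1 to 40.9 over the same classes, and Bgh-pA from 11.7 to 55.4. Sv40-pA changed least, from 71.3 to 115. FlpE fell at each step, from 73.5 to 56.0, 39.7, 17.9 and 12.3. The classes differed in depth, with medians of 6418, 3583, 4241, 7140 and 11588 UMIs per cell. Of the 14348 barcodes that passed, 11771 had no hashtag, so the mouse and genotype behind them are not known. Cell type and sample of origin therefore cannot be told apart across these classes.

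**Figure D4:**
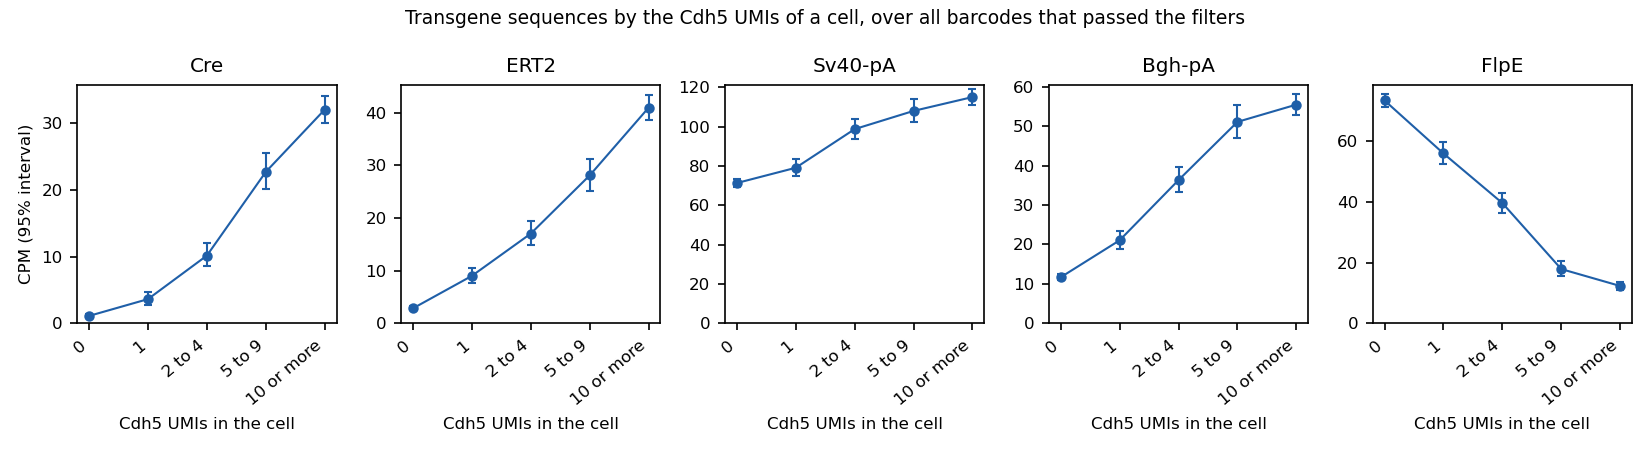
CPM of each transgene sequence (y axis, linear) in barcodes classed by their number of Cdh5 UMIs (x axis), with exact Poisson 95% intervals. Cre, ERT2 and Bgh-pA rise over the classes, Sv40-pA rises by less than 2-fold (71.3 to 115) and FlpE falls from 73.5 to 12.3.

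The same contrast held among cells with no hashtag, where Cdh5-positive cells over those without a Cdh5 UMI gave ratios of 17.3 (13.6 to 22.4) for Cre, 10.5 (8.97 to 12.4) for ERT2, 4.58 (4.20 to 4.99) for Bgh-pA and 1.67 (1.59 to 1.75) for Sv40-pA. FlpE had 0.392 (0.366 to 0.420). Cell type and sample of origin cannot be told apart among cells with no hashtag either. Within the iSuRe-Cre liver hashtag, the ratio was 16.1 (6.20 to 59.5) for Cre, from 249 UMIs in the Cdh5-positive cells and 4 in the 226 others. Sv40-pA was the reverse there, at 138 in Cdh5-positive cells and 264 (244 to 286) in the others, a ratio of 0.523 (0.475 to 0.575).

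Barcodes classed by markers showed a similar order. They are drawn from the same barcodes, most without a hashtag, and Cdh5 is on the endothelial list. The comparison is thus not independent of those above and has the same limits. In 3469 barcodes with endothelial markers, Cre was at 30.9 and ERT2 at 39.4. In 863 hepatocyte, 3509 erythroid, 1983 fibroblast, 144 macrophage and 299 keratinocyte barcodes Cre was at 0.490 to 4.12 and ERT2 at 2.56 to 9.24. Barcodes with neutrophil markers lay above these ranges, with Cre at 5.29 and ERT2 at 10.6. Endothelial over fibroblast barcodes, Cre had a ratio of 19.7 (14.8 to 26.8) and ERT2 of 15.4 (12.3 to 19.6). Bgh-pA was at 57.8 in endothelial and 12.6 to 20.6 in those other classes. FlpE was highest in fibroblast barcodes, at 85.1 (81.9 to 88.4), followed by erythroid ones, at 58.4, and was at 11.4 in endothelial ones. Sv40-pA was at 113 in endothelial, 48.6 to 82.5 in the other 5 classes, 189 (178 to 201) in 746 barcodes with neutrophil markers and 300.6 (245 to 365) in 22 mural barcodes. The barcode sequences were at 416 in fibroblast and 63.5 in endothelial barcodes, the same order as FlpE. Of the barcodes that passed, 4049 belonged to no class, and for 5121 the highest list lay within 10 points of the limit of 50% of markers.

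**Figure D5:**
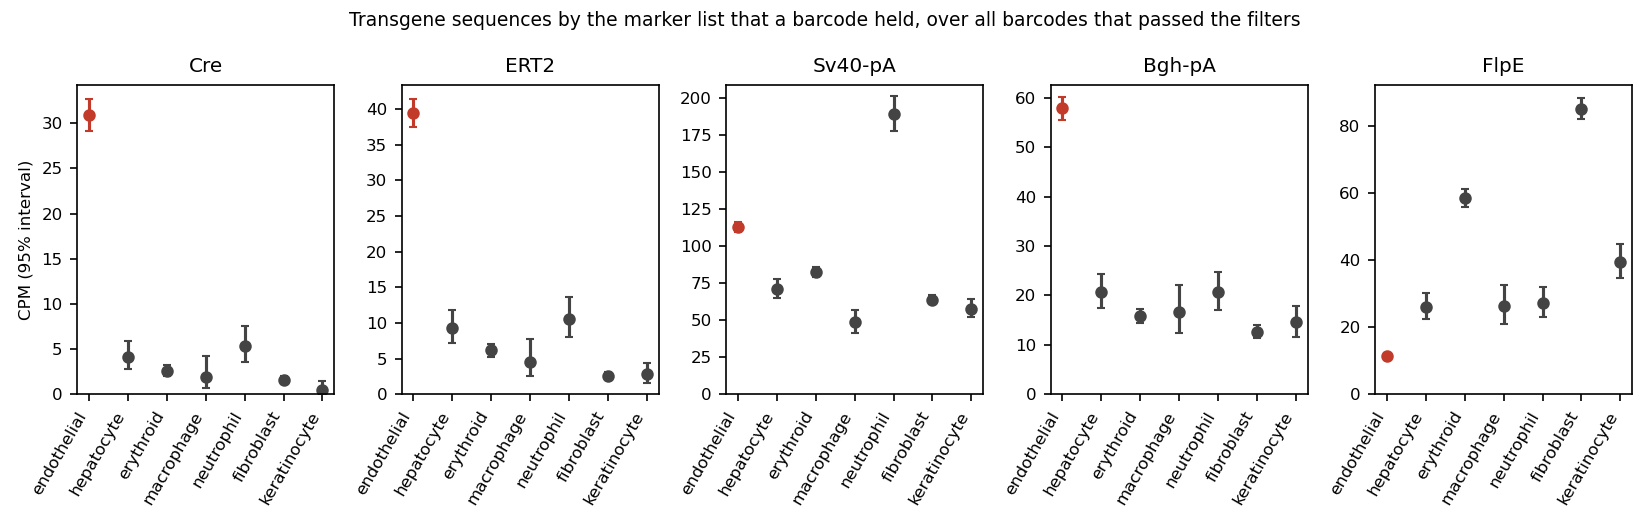
CPM of each transgene sequence (y axis, separate linear scales) in barcodes classed by the marker list they held (x axis), with exact Poisson 95% intervals. Cre, ERT2 and Bgh-pA are highest in the endothelial class (30.9, 39.4 and 57.8), Sv40-pA, of the classes drawn, in the neutrophil class (189) and FlpE in the fibroblast class (85.1).

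The share of cells with at least 1 UMI was governed by depth as well as by level. Among heart cells, Cre was detected in 40.5% (35.8 to 45.2, exact binomial interval) with iSuRe-Cre, in 26.7% (21.9 to 32.0) with iSuRe-HadCre and in 26.4% (21.1 to 32.2) of control. With each cell thinned to 2000 UMIs these shares were 6.49%, 8.19% and 6.64%, so the higher share of iSuRe-Cre heart was not seen at equal depth. In liver the shares were 23.3%, 19.7% and 11.1% in that order, and 5.36%, 5.22% and 2.43% after thinning. Cells that should lack Cre gave 3.36% in hepatocyte barcodes (median depth 4342 UMIs), 2.17% in erythroid (3913 UMIs), 2.07% in fibroblast (14332 UMIs) and 1.00% in keratinocyte barcodes (20229 UMIs), or 0.346% to 1.58% after thinning. All 6 groups were above those shares, control liver by the least.

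ERT2 was detected in 47.4% of iSuRe-Cre, 35.7% of iSuRe-HadCre and 37.0% of control cells in heart and in 20.9%, 27.6% and 18.5% in liver, against 3.63% to 7.30% in fibroblast, erythroid, keratinocyte and hepatocyte barcodes. After thinning, the ERT2 shares in that order were 8.12%, 11.5% and 9.88% in heart, where iSuRe-Cre was then lowest. In liver they were 4.57%, 8.12% and 4.99%. Bgh-pA was found in 64.0% of iSuRe-HadCre, 49.2% of control and 31.0% of iSuRe-Cre heart cells, and in 25.1%, 15.4% and 4.46% after thinning. In liver the thinned shares were 23.2%, 11.6% and 4.40%, in the same order. The iSuRe-Cre shares lay within the 2.74% to 5.23% of the same 4 non-endothelial classes. By level, however, iSuRe-Cre liver cells were at 2.29 (1.44 to 3.83) times the 8.29 CPM of cells with the same hashtag and 0 Cdh5 UMIs. Sv40-pA was found in 67.6% of iSuRe-Cre heart cells and 20.4% after thinning, against 6.96% in control and 4.86% in iSuRe-HadCre. The thinned Sv40-pA shares of non-endothelial classes were 10.7% to 16.3%, above those of control and iSuRe-HadCre heart. FlpE was found in 3.70% to 8.74% of the cells of a group, below the 13.7% to 31.0% of hepatocyte, keratinocyte, erythroid and fibroblast barcodes.

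The sequences differed in how their UMIs were spread over cells. Cells with at least 5 UMIs held 2.88% of all Cre UMIs of the 6 groups, 1.13% of ERT2 and 6.52% of Bgh-pA UMIs. For Sv40-pA the share was 54.7%, from 154 of the 884 cells with a UMI, the highest cell having 36. In control heart 16 cells held 81.3% of the Sv40-pA UMIs, so that a level of 72.3 came from 17.3% of the cells. iSuRe-HadCre heart had 4 such cells with 26.8%. No cell of any group had more than 6 Cre or 5 ERT2 UMIs.

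ERT2 was found more often in cells with a Cre UMI than in those without in 4 of the 5 groups with at least 10 cells of each. In cells with a Cre UMI, ERT2 was found in 50.7% (38.2 to 63.2) in control heart, against 32.1% (25.5 to 39.3) without. iSuRe-HadCre heart had 44.6% and 32.5%, iSuRe-Cre heart 58.5% and 39.8% and iSuRe-Cre liver 30.5% and 17.9%. In iSuRe-HadCre liver, where 15 cells had Cre, the shares were 26.7% and 27.9%. Cdh5-positive cells with no hashtag had 33.7% (29.6 to 38.0) and 11.8% (10.9 to 12.7). The intervals with and without Cre were separate in both iSuRe-Cre groups and in the cells with no hashtag. Cells with Cre were deeper, for example 7509 against 4009 UMIs at the median in those with no hashtag. After thinning to 2000 UMIs the shares there were 8.95% and 5.16%, and in control heart 15.6% and 9.47%. In iSuRe-Cre heart, at 9.51% and 8.02%, little was left of the difference.

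FlpE was found less often beside Cre in 4 of the 5 sets compared. In iSuRe-Cre liver 4.00% (1.74 to 7.73) of cells with and 10.2% (7.98 to 12.8) of those without Cre had FlpE, and with no hashtag 6.51% (4.52 to 9.02) and 12.0% (11.1 to 12.9). The exception was iSuRe-Cre heart, with 6.25% (3.16 to 10.9) and 3.09% (1.34 to 6.00). After thinning that order turned, to 0.491% and 0.572%. In cells with no hashtag the thinned shares were 3.14% and 6.18%. Bgh-pA accompanied Cre in 43.2% (38.8 to 47.6) against 18.9% (17.8 to 20.0) of cells with no hashtag, and in 16.9% against 9.11% after thinning. In control and iSuRe-HadCre heart, by contrast, Bgh-pA was in 50.7% and 48.7%, and in 69.9% and 61.8%, with overlapping intervals.

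Cells with and without a UMI of a reporter sequence were compared within groups. WPRE of the iSuRe-Cre groups, at 63.5 CPM in heart and 105 in liver, lay below free RNA. Free RNA held 148 WPRE and 28 Tomato UMIs beside 50 of Bgh-pA, the latter at 54.2 CPM. How many reporter UMIs of the iSuRe-Cre cells came from free RNA was not tested. In iSuRe-Cre liver, Cre was at 33.0 in cells with a WPRE UMI and at 19.6 in those without, a ratio of 1.68 (1.29 to 2.21). With Tomato the levels were 38.2 and 22.0, a ratio of 1.73 (1.33 to 2.25). The ratio with WPRE was above 1 in the same group also for Sv40-pA, at 1.44 (1.29 to 1.62), for ERT2, at 1.34 (1.02 to 1.75), and for FlpE, at 1.73 (1.24 to 2.42), while Bgh-pA had 1.15 (0.844 to 1.56). In iSuRe-Cre heart the ratios for Cre were 1.26 (0.977 to 1.64) with WPRE and 1.26 (0.978 to 1.63) with Tomato.

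In iSuRe-HadCre heart, Cre was at 34.9 in cells with WPRE and at 97.1 in those without, a ratio of 0.359 (0.182 to 0.807). ERT2 had 0.375 (0.203 to 0.769) and Sv40-pA 0.218 (0.119 to 0.439) there. With Tomato in place of WPRE the Cre ratio was 0.821 (0.515 to 1.36). Only 9 Cre UMIs came from cells without WPRE, since 293 of 311 cells had it. Control heart had a similar Cre ratio with WPRE, 0.337 (0.186 to 0.663), from 13 UMIs without it, and an ERT2 ratio of 0.957 (0.472 to 2.26). Sv40-pA was likewise lower in control cells with a WPRE UMI, with ratios of 0.330 (0.227 to 0.493) in heart and 0.240 (0.156 to 0.373) in liver. Bgh-pA was higher in cells with WPRE, by 3.10 (2.71 to 3.56) times among cells with no hashtag and by 8.01 (1.40 to 320.0) times in iSuRe-HadCre liver, the latter against 1 UMI.

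Notch1, a receptor gene, was the gene that the study targeted for deletion in the iSuRe groups, although the labels list no floxed allele. It was at 138 CPM in control heart, 160.2 in control liver and 12.6 to 30.7 in the 4 iSuRe groups, and was compared between cells with and without a Cre UMI. In iSuRe-Cre heart it was at 8.59 with and 16.1 without a Cre UMI, a ratio of 0.533 (0.342 to 0.815). The ratio was 0.778 (0.547 to 1.09) in iSuRe-Cre liver, 1.34 (0.803 to 2.20) in iSuRe-HadCre heart and 1.13 (0.913 to 1.40) in control heart. iSuRe-HadCre liver had 2.66 (1.01 to 6.91), from 10 and 11 UMIs. Cdkn1a, the gene of the cell cycle inhibitor p21, had ratios of 0.983 (0.924 to 1.05) in iSuRe-Cre heart and 1.31 (1.13 to 1.52) in iSuRe-HadCre heart.

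For each sequence, the 3 genes whose levels were most like it over the 6 groups were looked for among 9741 genes, by Pearson correlation of log2(CPM + 10). The 6 points come from 1 library and differ in depth, so the values describe these groups only. Adamts4 was closest to Cre (r = 0.99), with 4.81 CPM in control liver and 29.2 to 41.3 elsewhere, followed by Akirin1 and Nfil3. Cdipt, Cstf2 and Itpr2 were closest to ERT2, and Eya3, Lztfl1 and Dclre1c to FlpE. Ccnyl1 was closest to Bgh-pA (r = 0.99), at 46.8 and 47.9 in the iSuRe-Cre groups and 59.3 to 77.6 in the others, followed by Klf13 and Sh3pxd2a. Slc39a13, Impa2 and Gsr were closest to Sv40-pA.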

How the data were processed

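Per the study's methods, the authors used Cell Ranger 7.1.0 and a GRCm38 reference extended by transgene sequences, and the deposited values are unfiltered UMI counts without normalization. Whether the library read the 3′ or the 5′ end is not given in the sources used here. Barcodes were kept with 2000 to 75000 gene UMIs, more than 500 genes, and mitochondrial and Hba/Hbb shares below 5% each. Cdh5-positive means ln(1 + 10000 × share of UMIs) above 0.9. The study also removed cells with normalized WPRE of 0.5 or less, which the main groups here keep. A group needed at least 25 UMIs of its hashtag (140 for hashtag 302) with the other 5 below their minimum. Cells with several hashtags were left out, and doublets within a group were not removed. A further 7 tag features without a group in the labels were not used for grouping. A barcode belonged to a marker class when at least 50% of the list had 2 or more UMIs and no other list was as high. The neutrophil class overlaps the others.

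Counts were summed per group and divided by all gene UMIs. Shares were also computed for each cell thinned to 2000 UMIs, as the mean over all possible draws. With 1 sample per group no test was run. Features with at least 20 UMIs in a comparison form its background, and called means a ratio of at least 2 either way. Python 3.11.15, numpy 2.4.6, scipy 1.17.1 and pandas 2.3.3 were used, and scripts were tested on simulated data. The members, the marker lists and the filters were chosen with earlier results of these data known, and the neutrophil list was added after values had been seen. Genes named are the 5 sequences, the other added sequences, 10 genes fixed by name (Gt(ROSA)26Sor is not analysed here, and Pecam1 and Actb are not described singly), and the 3 most alike genes for each sequence.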

Additional observations from a re-analysis of the deposited data

Results flagged for a closer look

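The FlpE ratios lay on opposite sides of 1 in heart and liver, but both liver intervals include 1. The iSuRe-HadCre to iSuRe-Cre ratio was 3.25 (2.21 to 4.81) in heart and 0.659 (0.280 to 1.33) in liver, where it was 1.38 with a hashtag minimum of 50 UMIs. iSuRe-Cre over control was 0.295 (0.200 to 0.434) in heart and 1.85 (0.831 to 5.11) in liver, the latter against 6 UMIs. Sv40-pA in iSuRe-Cre over control was 2.04 (1.77 to 2.37) in heart and 0.927 (0.751 to 1.16) in liver. With 1 sample per group, none of these differences between tissues was tested.

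Tag features without a group in the labels also held UMIs over the barcodes that passed: HTO304 had 95876 and HTO308 192151, with medians of 2 and 4 per barcode. CMO301 had 3669008 UMIs, CMO302 3841059, CMO303 1788810, CMO304 2464344 and CMO305 2121092. The sum of the CMO tags had a median of 51 UMIs in the cells of the 6 groups, 289 in Cdh5-positive cells with no hashtag and 584 in cells with neither a hashtag nor a Cdh5 UMI. What the CMO tags marked is not given in the sources used here.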

How the results depend on the processing

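Of 450 ratios between groups, over 8 alternatives planned and 2 chosen after seeing the data, 332 planned and 83 added values stayed within the counting interval of the main value, and none of those whose interval excluded 1 changed sides. The ratios of iSuRe-HadCre to iSuRe-Cre stayed between 4.29 and 6.53 (heart) and 5.22 and 8.44 (liver) for Bgh-pA, and between 0.154 and 0.300 (heart) and 0.282 and 0.564 (liver) for Sv40-pA. The cause of the moves below was not tested.

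With a hashtag minimum of 10 UMIs, FlpE in iSuRe-HadCre over control heart was 1.43 and Bgh-pA in iSuRe-HadCre liver over heart 0.795. Sv40-pA in iSuRe-HadCre was 0.300 of iSuRe-Cre and 0.701 of control in heart, and 0.564 and 0.611 in liver. With 50 UMIs, FlpE in iSuRe-HadCre over iSuRe-Cre liver was 1.38, Bgh-pA in iSuRe-Cre over control liver 0.246, and in iSuRe-Cre liver over heart Bgh-pA was 0.663 and Sv40-pA 1.10. The study itself removed cells with normalized WPRE of 0.5 or less, to select Tomato-expressing ECs. Requiring WPRE above 0.5 in the iSuRe groups left 145 of 435 iSuRe-Cre and 292 of 311 iSuRe-HadCre heart cells. In liver it left 379 of 858 and 66 of 76. The setting gave, for iSuRe-HadCre over iSuRe-Cre heart, 0.905 for Cre, 4.29 for Bgh-pA and 0.154 for Sv40-pA. For iSuRe-Cre over control heart it gave 0.398 for Bgh-pA and 2.52 for Sv40-pA, and ERT2 in iSuRe-Cre liver over heart was 0.843. Under 20000 UMIs per cell, FlpE gave 20.6 in iSuRe-HadCre over iSuRe-Cre heart, 0.118 in liver, 0.0600 in iSuRe-Cre over control heart, 5.72 in liver and 48.6 in iSuRe-Cre liver over heart, each with 1 UMI on one side. Sv40-pA there was 2.58 in iSuRe-Cre over control heart and 0.814 in iSuRe-Cre liver over heart. Weighing cells equally gave 1.44 for ERT2 in iSuRe-HadCre over iSuRe-Cre heart, 0.662 for FlpE in iSuRe-HadCre over control heart, 5.49 for FlpE and 1.20 for Sv40-pA in iSuRe-Cre over control liver, and 6.27 for FlpE in iSuRe-Cre liver over heart.

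Of the alternatives chosen after seeing the data, endothelial-marker cells alone gave FlpE ratios of 1.41 in iSuRe-HadCre over control heart and 1.86 in iSuRe-Cre liver over heart. Leaving out cells with a neutrophil-gene UMI gave FlpE ratios of 1.71 in iSuRe-HadCre over iSuRe-Cre heart and 0.506 over control, and Sv40-pA ratios of 1.32 in iSuRe-Cre over control liver, 1.34 in control and 0.812 in iSuRe-Cre liver over heart. Thinning turned the Sv40-pA share with minus without a Cre UMI, in cells with no hashtag, to -3.15 percentage points.

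No paired analysis was possible because each group is 1 sample, and no sample was left out because that would leave none. Depth limits the liver values of control (54 cells) and iSuRe-HadCre (76 cells) most.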
